A study of Bos taurus with 15 samples.

Results

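Steroid hormone receptors and the glucocorticoid response were described with 9 genes (ESR1, ESR2, PGR, NR3C1, NR3C2, HSD11B1, FKBP4, FKBP5 and TSC22D3), chosen by name out of 13896 genes, and all 9 were found in each of the 6 comparison tables. RNA was sequenced from subcutaneous fat of the dewlap of primiparous Holstein cows, biopsied after a fast, in 15 libraries of 5 groups with 3 libraries each. The first group was sampled 1 month before calving, ahead of the diets. The other groups had received a low energy (LE) or a high energy (HE) diet since that month and were sampled at 1 or 16 weeks postpartum (wkpp). The study sequenced the cows of most extreme energy balance at 1 wkpp and names its groups by the severity of negative energy balance. The labels name the diets, which are used here, and do not match one to the other. The study's list of libraries has the severe groups in the places of LE and the moderate groups in those of HE. Diet and energy balance therefore cannot be told apart here. Each animal was biopsied at the 3 times, so libraries of different times may come from the same cow, and the labels do not say which. The 6 comparisons ask how the tissue differs across calving, across early lactation and between the groups labelled LE and HE.

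Steroid receptors are transcription factors that are held by heat shock protein complexes until hormone binds. Oestrogen acts through ESR1 and ESR2, and PGR, the progesterone receptor, is a textbook gene induced by oestrogen. Cortisol acts through NR3C1, the glucocorticoid receptor, and is also bound by NR3C2, the mineralocorticoid receptor. In fat, HSD11B1 regenerates cortisol from cortisone. FKBP4 and FKBP5 are co-chaperones of the receptor complex, the former favouring and the latter lowering hormone binding by NR3C1, and FKBP5 and TSC22D3 are themselves classical glucocorticoid-induced genes.

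Reads per library were recovered from the deposited mean counts, as described in the processing section, and libraries are given in order of depth within their group (deepest first), an order without link to the animals. Reads on exons of the genes used amounted to 2023592 to 7492319 in the 6 HE libraries and 8005860 to 14579944 in the other 9. The study lists similar total reads for all libraries. In its libraries of moderate negative energy balance, a smaller share mapped uniquely and more reads mapped to several places than in all the others. A normalized count is the number of reads divided by the size factor of the library. It compares libraries for 1 gene, not genes with each other, because it is not divided by gene length. The adipocyte markers were present in all groups, and PLIN1, which coats the lipid droplet, had between 3005 and 25580 normalized exonic counts. Their sums (6 of 7 measured) were 73856 to 89346 in LE 1 wkpp and 21146 to 58619 in HE 1 wkpp, 42570 to 49764 in LE 16 wkpp and 10617 to 41972 in HE 16 wkpp, and 46043 to 56395 before calving. The sums of the diets did not overlap at either time, at 16 wkpp by a narrow margin, but single markers were mixed. Of the 6, 5 were higher in LE at 1 wkpp and 4 at 16 wkpp, with 0 called. At 16 wkpp, FABP4 was 21630 to 22270 in LE and 3465 to 20900 in HE. PLIN1 (10980 to 17770 in LE, 3005 to 11430 in HE) and LEP (8.61 to 41.7 in LE, 36.1 to 154 in HE) overlapped. Summed levels of several marker lists differed between the libraries of the diets, although no marker was called between LE and HE at 1 wkpp. Summed counts of the fibroblast markers (3 of 5 measured, DCN, LUM and PDGFRA) were 59854 to 70985 before calving, 34034 to 52491 in LE 1 wkpp, 67961 to 76418 in LE 16 wkpp, 6503 to 11935 in HE 1 wkpp and 9039 to 22114 in HE 16 wkpp. Summed mast cell markers (KIT and CPA3) were 1131 to 4317 in the groups other than HE and 244 to 449 in the HE libraries. Summed macrophage markers (4 of 5) were 7492 to 13549 in LE, 1916 to 6887 in HE and 4865 to 6932 before calving. Smooth muscle markers (3 of 3) at 16 wkpp summed to 3948 to 13131 in LE and 18007 to 55043 in HE. At 1 wkpp their sums overlapped (7200 to 14499 in LE and 9864 to 19221 in HE), and before calving they were 8760 to 39611. Skeletal muscle markers (5 of 5) summed to 72.2 to 344 outside HE and 1177 to 4049.7 in HE, but nearly all of this was TNNT3 (1175 to 3957 in HE). The other 4 (ACTA1, MYH1, MYH2 and CKM) together had 1 to 60 reads in the HE libraries and 1 to 34 in the others. The part of these markers, of depth and of mapping in the differences from HE reported here was not tested. In bulk tissue, fewer cells of a type and less RNA per cell cannot be told apart.

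A gene was called when its adjusted p was below 0.01 with exonic reads and with whole gene reads, in the same direction (limma voom, Benjamini-Hochberg over all genes tested). None of the 9 genes was called in any of the 6 comparisons, of which ESR2 could not be tested with exonic reads in any and HSD11B1 in 1. The share of all genes called was 1.82% for before calving against HE 1 wkpp, 0.0378% for before calving against LE 1 wkpp, 0% for HE 1 against HE 16 wkpp, 0% for LE 1 against LE 16 wkpp, 0% for LE against HE at 1 wkpp and 3.65% for LE against HE at 16 wkpp. With exonic reads alone, ESR1 and NR3C1 passed before calving against HE 1 wkpp, where 16.5% of all genes passed, and ESR1 passed for LE against HE at 16 wkpp, where 10.3% did. At an unadjusted p below 0.05 with both kinds of reads and the same sign, the genes counted were 2 of 8 tested for before calving against HE 1 wkpp, 4 of 8 for before calving against LE 1 wkpp, 0 of 7 for HE 1 against HE 16 wkpp, 0 of 8 for LE 1 against LE 16 wkpp, 1 of 8 for LE against HE at 1 wkpp and 4 of 8 for LE against HE at 16 wkpp. The corresponding shares of all genes were 25.3%, 9.61%, 8.02%, 4.56%, 18.3% and 26.1%. The libraries of the 2 groups failed to overlap with both kinds of reads in 2 of 8 genes for before calving against HE 1 wkpp, 2 of 8 for before calving against LE 1 wkpp, 0 of 8 for LE against HE at 1 wkpp and 4 of 8 for LE against HE at 16 wkpp, beside 31.2%, 11.5%, 26.1% and 31% of all genes. Each group enters 2 or 3 of the 6 comparisons, which are therefore not independent. With 3 libraries against 3, an exact permutation test of 1 gene cannot give a p below 0.1, so the fit across all genes was used.

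**Figure D1:**
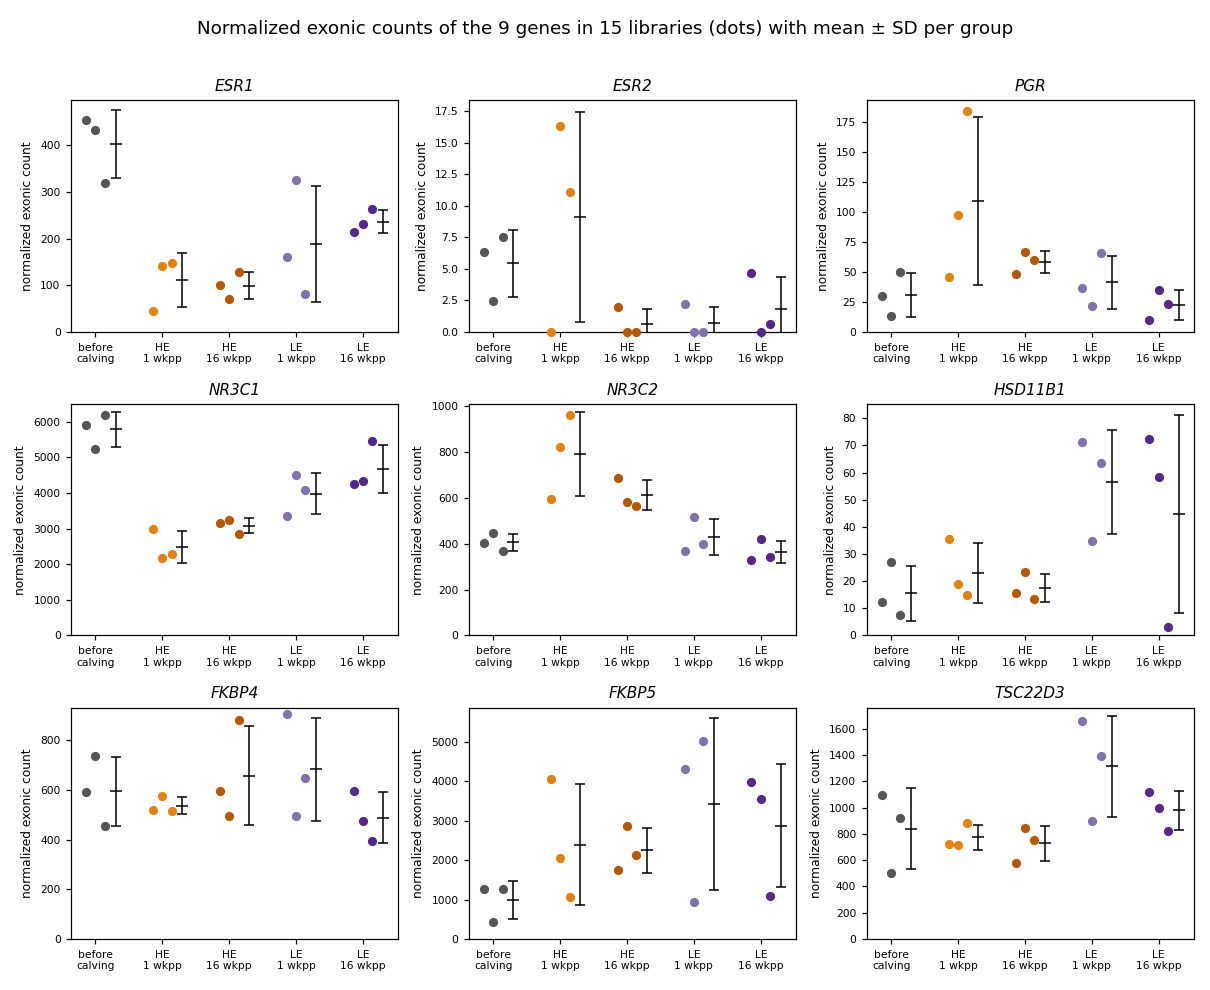
Normalized exonic counts (linear axis from 0) of the 9 genes in each library, grouped by diet and time, with bars for mean ± SD (n = 3). NR3C1 and ESR1 were highest before calving and lower in the HE groups, NR3C2 was highest in the HE groups, and FKBP5 was spread widely within groups.

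Among the sex steroid receptors, ESR1, the main oestrogen receptor of adipose cells, had its highest levels before calving. The normalized exonic counts before calving were 454, 432 and 319, a mean of 402 ± 72.7 (SD, n = 3). They were 45.0, 141 and 148 in HE 1 wkpp, 161, 325 and 81.3 in LE 1 wkpp, 100.2, 69.7 and 128 in HE 16 wkpp, and 214, 231 and 264 in LE 16 wkpp. The 3 libraries before calving did not overlap with those of HE 1 wkpp, whereas 1 library of LE 1 wkpp reached the lowest of them. ESR1 was 2.36 ± 0.42 log2 units (SE) higher before calving than in HE 1 wkpp with exonic reads (adjusted p = 0.00241), but the whole gene reads gave 2.00 ± 0.69 (adjusted p = 0.124). Without the deepest HE 1 wkpp library, the exonic difference was 1.50 (adjusted p = 0.00969). Whole gene counts in HE 1 wkpp were 287, 1817 and 1893, so the deepest library lay far under the other two. Against LE 1 wkpp, the difference was 1.28 ± 0.42 (exonic, adjusted p = 0.192) and 1.27 ± 0.37 (whole gene, adjusted p = 0.237).

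At 16 wkpp, the ESR1 counts of LE and HE did not overlap with either kind of reads. The difference was 1.27 ± 0.25 log2 units in favour of LE with exonic reads (adjusted p = 0.00765) and 1.80 ± 0.33 with whole gene reads (adjusted p = 0.0117). The exonic difference no longer passed without any 1 of the 6 libraries (adjusted p of 0.0156 to 0.0476) or in the fit of all 15 libraries (adjusted p = 0.0942). In this comparison, 1 of the 3 measured fibroblast markers (DCN), 2 of 4 macrophage markers (CD163 and CSF1R), both mast cell markers and 1 of 4 lymphocyte markers (PTPRC) were called higher in LE, and TNNT3, the only skeletal muscle marker tested, was called lower, beside 3.65% of all genes called. At 1 wkpp, the diets overlapped and the difference was 1.09 ± 0.66 (exonic, adjusted p = 0.286). From 1 to 16 wkpp, differences were -0.29 ± 0.48 in HE and -0.52 ± 0.41 in LE (exonic, 1 minus 16 wkpp, adjusted p = 0.811 and 0.764). In HE the sign was not stable, since the mean exonic count was higher at 1 than at 16 wkpp by a fold of 1.12 and the whole gene difference was 0.57 ± 0.81 (adjusted p = 0.847). The difference between the exonic changes of LE and HE was -0.17 ± 0.78 (adjusted p = 0.996). No gene of the genome was called for that difference (0%), and 288 genes had an unadjusted p below 0.05 with both kinds of reads.

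The order of ESR1 group means was before calving, LE 16 wkpp, LE 1 wkpp, HE 1 wkpp and HE 16 wkpp. Before calving was separated from LE 16 wkpp by a fold of 1.70 without overlap, and all other neighbours in that order overlapped. The genes whose pattern over the 15 libraries was most like that of ESR1 were MMP16, a membrane matrix metalloproteinase, MYOC and NIPSNAP1 (Pearson r of 0.95, 0.94 and 0.94 on log2 counts, among 8020 genes compared).

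ESR2, the second oestrogen receptor, was scarcely detected. Its exonic reads were 0 in 6 of 15 libraries and at most 11 in any library, and it did not pass the filter on low exonic counts in any comparison. In the libraries at 0, a floor of 3 reads corresponds to 1.69 to 8.16 normalized counts, so lower levels were not detectable. Reads on the whole gene reached 156 and lay mostly outside exons (median 95.8% of the reads). The whole gene counts of HE 1 wkpp were 9.64, 306 and 344, and those of LE 1 wkpp were 5.41, 8.79 and 8.35. The deepest HE library was thus level with LE and the other two were not, and the difference of -2.28 ± 2.09 (LE minus HE) did not pass (adjusted p = 0.54).

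PGR was low and had its highest exonic counts in HE 1 wkpp. The counts were 46.1, 97.7 and 185 in HE 1 wkpp, 48.1, 67.1 and 59.8 in HE 16 wkpp, 36.4, 21.9 and 65.6 in LE 1 wkpp, 9.91, 35.0 and 23.3 in LE 16 wkpp, and 30.1, 12.9 and 49.7 before calving. LE and HE at 16 wkpp did not overlap, whereas before calving the highest library exceeded the lowest of HE 1 wkpp. For LE minus HE at 16 wkpp the difference was -1.49 ± 0.49 with exonic reads (adjusted p = 0.0517) and -0.77 ± 0.26 with whole gene reads (adjusted p = 0.0839). Before calving minus HE 1 wkpp gave -1.55 ± 0.58 and -1.60 ± 0.69 (adjusted p = 0.069 and 0.202). PGR and ESR1 differences had opposite signs in both comparisons. The whole gene difference of HE 1 minus HE 16 wkpp was 1.45 ± 0.45 (adjusted p = 0.348). Genes most like PGR were ADAT1, SUPT3H and PPP1R21 (r = 0.92, 0.91 and 0.91).

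**Figure D2:**
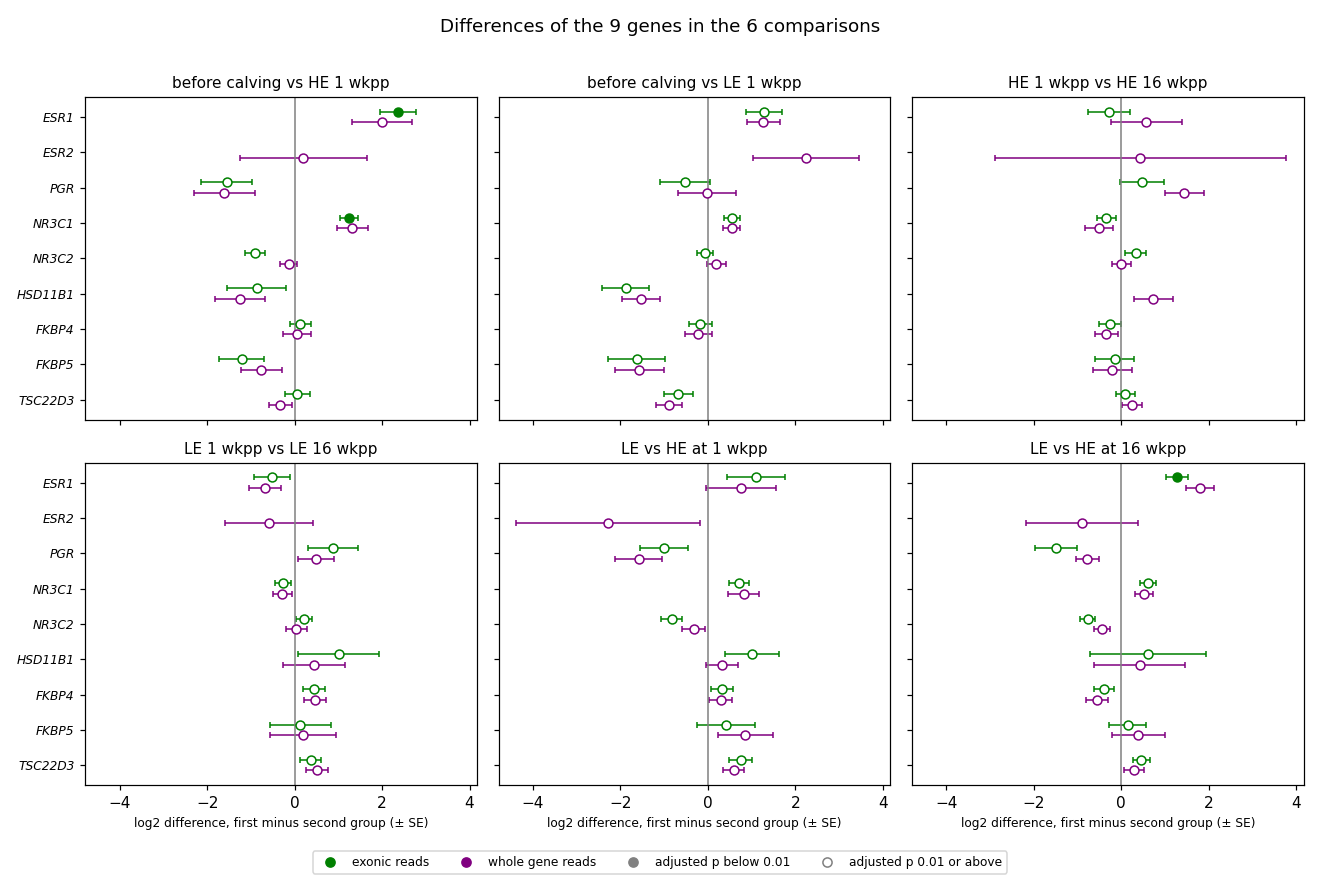
Log2 difference (first minus second group) ± SE of each gene in the 6 comparisons, for exonic reads (green) and whole gene reads (purple), with filled points where the adjusted p was below 0.01. Filled points are ESR1 and NR3C1 for before calving against HE 1 wkpp and ESR1 for LE against HE at 16 wkpp, all with exonic reads.

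The corticosteroid receptors showed opposite signs between the diets. NR3C1 exonic counts were 5913, 5225 and 6199.8 before calving (mean 5779 ± 501, SD, n = 3), 3352, 4505 and 4091 in LE 1 wkpp, 4253, 4325 and 5456 in LE 16 wkpp, 3001, 2171 and 2274 in HE 1 wkpp, and 3153, 3234 and 2837 in HE 16 wkpp. With exonic reads, every library of HE lay under every library of LE and of the group before calving, whereas with whole gene reads the deepest HE 1 wkpp library (10718) lay above the lowest of LE 1 wkpp (9216). The difference before calving minus HE 1 wkpp was 1.24 ± 0.21 log2 units with exonic reads (adjusted p = 0.00205), a fold of 2.33 between the group means, and 1.32 ± 0.35 with whole gene reads (adjusted p = 0.0599). In this comparison, 2 of 3 fibroblast markers (DCN and PDGFRA), 2 of 6 adipocyte markers (CIDEC and LEP) and 1 of 2 mast cell markers (KIT) were called higher before calving, beside 1.82% of all genes called. Without the deepest HE 1 wkpp library, NR3C1 was called with both kinds of reads, beside 2.17% of all genes, whereas without the deepest or the shallowest library before calving the exonic difference did not pass (adjusted p = 0.0134 and 0.0114).

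Before calving minus LE 1 wkpp, NR3C1 differed by 0.55 ± 0.18 (exonic, adjusted p = 0.191) and 0.54 ± 0.20 (whole gene, adjusted p = 0.359), with no overlap of the libraries in either. LE minus HE gave 0.71 ± 0.22 at 1 wkpp (adjusted p = 0.0611) and 0.61 ± 0.18 at 16 wkpp (adjusted p = 0.037) with exonic reads. Whole gene reads gave 0.82 ± 0.35 and 0.52 ± 0.21 (adjusted p = 0.263 and 0.137). For 1 minus 16 wkpp, the differences were -0.34 ± 0.22 in HE and -0.25 ± 0.18 in LE (adjusted p = 0.515 and 0.745). The pattern of NR3C1 was most like those of CRISPLD2, itself a glucocorticoid-responsive gene, BCHE, the butyrylcholinesterase, and COMMD3 (r = 0.97, 0.96 and 0.96).

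NR3C2 exonic counts were 596, 822 and 959.8 in HE 1 wkpp and 688, 583 and 566 in HE 16 wkpp. They were 366, 518 and 401 in LE 1 wkpp, 331, 419 and 343 in LE 16 wkpp, and 403, 445 and 369 before calving. With exonic reads, all HE libraries lay above all the others. Whole gene counts of HE 1 wkpp (from 6841) overlapped those of LE 1 wkpp (up to 8676) and before calving (up to 8255). LE minus HE was -0.83 ± 0.24 at 1 wkpp (adjusted p = 0.0477) and -0.77 ± 0.17 at 16 wkpp (adjusted p = 0.0124), and before calving minus HE 1 wkpp was -0.91 ± 0.23 (adjusted p = 0.0131), all with exonic reads. None of them was under the threshold of 0.01. Whole gene reads, of which a median of 93.1% lay outside the exons, gave smaller differences of -0.33 ± 0.27, -0.44 ± 0.18 and -0.14 ± 0.20 (adjusted p = 0.504, 0.143 and 0.741). NR3C2 before calving and in LE 1 wkpp differed by -0.06 ± 0.18 (adjusted p = 0.921). CLPB, DLG5 and WWP2 had the most similar pattern (r = 0.95 for each).

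The number of NR3C1 reads per NR3C2 read within a library needs no scaling between libraries, although gene length makes it no ratio of transcript numbers. This ratio was examined after the values of both genes were seen. With exonic reads it was 14.7, 11.7 and 16.8 before calving, 9.15, 8.70 and 10.2 in LE 1 wkpp, 12.9, 10.3 and 15.9 in LE 16 wkpp, 5.04, 2.64 and 2.37 in HE 1 wkpp, and 4.58, 5.54 and 5.01 in HE 16 wkpp. With exonic reads the HE libraries were the lowest for NR3C1 and the highest for NR3C2, which fixes that their ratios lie under all the others, so the ratios are given as a description without a test and add no support to the values of the single genes. The log2 ratio was higher in LE than in HE by 1.56 at 1 wkpp and by 1.35 at 16 wkpp, higher before calving than in HE 1 wkpp by 2.17, and higher before calving than in LE 1 wkpp by 0.61. With whole gene reads, the last of these was 0.35 and the groups overlapped. The whole gene ratios were 1.57, 0.64 and 0.50 in HE 1 wkpp and 1.89, 1.34 and 1.90 in LE 1 wkpp, which overlapped. At 16 wkpp, they were 0.88, 1.31 and 1.08 in HE and 1.99, 1.59 and 2.96 in LE, without overlap.

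**Figure D3:**
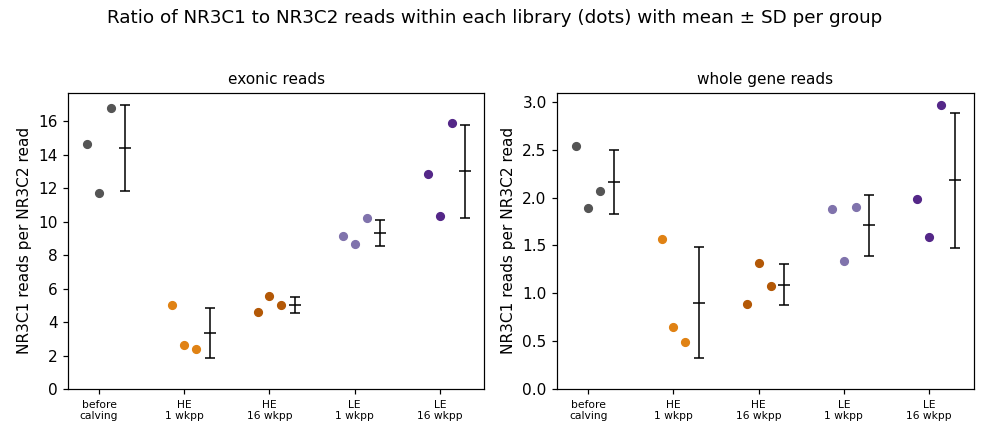
NR3C1 reads per NR3C2 read in each library (linear axis from 0), for exonic and whole gene reads, with mean ± SD (n = 3). With exonic reads the 6 HE libraries sit between 2.37 and 5.54 and the other 9 between 8.70 and 16.8.

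HSD11B1 had few reads. Its exonic counts were 71.1, 34.8 and 63.6 in LE 1 wkpp and 12.1, 27.0 and 7.5 before calving, and these groups did not overlap. The difference before calving minus LE 1 wkpp was -1.88 ± 0.54 with exonic reads (adjusted p = 0.136) and -1.52 ± 0.43 with whole gene reads (adjusted p = 0.22), so it was not called. HE libraries held 13.6 to 35.6 normalized counts. In LE 16 wkpp the counts were 72.5, 58.4 and 3.24, the last from 5 reads, and LE minus HE at 16 wkpp was 0.61 ± 1.32 (adjusted p = 0.765). For HE 1 against HE 16 wkpp the exonic counts were under the filter. The most similar genes were GADD45A, GPX3 and MYC (r = 0.86, 0.83 and 0.81).

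The exonic counts of FKBP4, the first of the receptor co-chaperones, ranged from 393 to 906 over all libraries, every pair of neighbours in the order of group means overlapped, and the exonic log2 differences lay between -0.40 ± 0.24 (LE minus HE at 16 wkpp, adjusted p = 0.25) and 0.44 ± 0.25 (LE 1 minus LE 16 wkpp, adjusted p = 0.703). Its change from 1 to 16 wkpp differed between LE and HE by 0.71 ± 0.36 (adjusted p = 0.99). RUVBL1, a chaperone-related ATPase, had the pattern most like that of FKBP4 (r = 0.82), followed by RRAS and BTBD6 (r = 0.76 and 0.74).

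FKBP5 was spread widely within groups. The exonic counts were 1261, 439 and 1263 before calving, 4066, 2052 and 1059 in HE 1 wkpp, 1741, 2855 and 2143 in HE 16 wkpp, 4319, 931 and 5017 in LE 1 wkpp, and 3981, 3542 and 1085 in LE 16 wkpp. The highest library was 5.39 times the lowest in LE 1 wkpp, 3.84 times in HE 1 wkpp, 3.67 times in LE 16 wkpp, 2.88 times before calving and 1.64 times in HE 16 wkpp. PGR had larger ratios before calving (3.86) and in HE 1 wkpp (4.01), and HSD11B1 before calving (3.60) and in LE 16 wkpp (22.4). In HE 16 wkpp, ESR1 (1.83), FKBP4 (1.78) and HSD11B1 (1.71) had larger ratios than FKBP5. The median gene had ratios of 1.29 to 1.57. A ratio above that of FKBP5 was found in 0.823% of 8021 genes in LE 1 wkpp, 1.06% in LE 16 wkpp, 3.23% in HE 1 wkpp, 1.56% before calving and 29.4% in HE 16 wkpp.

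Group means of FKBP5 were lowest before calving (987 ± 475, SD, n = 3) and 2246 to 3423 after calving, but a library of each group at 1 wkpp and of LE 16 wkpp lay within the range before calving. The difference before calving minus LE 1 wkpp was -1.62 ± 0.65 (exonic, adjusted p = 0.294) and before calving minus HE 1 wkpp was -1.21 ± 0.51 (adjusted p = 0.0973). LE minus HE was 0.42 ± 0.66 at 1 wkpp and 0.14 ± 0.43 at 16 wkpp (adjusted p = 0.697 and 0.83). Likeness was highest with ADSS, RRN3 and LIFR, a cytokine receptor (r = 0.91, 0.88 and 0.88).

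TSC22D3, which encodes the glucocorticoid-induced leucine zipper, had exonic counts of 1099, 499 and 921 before calving, 722, 719 and 886 in HE 1 wkpp, 582, 844 and 756 in HE 16 wkpp, 1657, 896 and 1391 in LE 1 wkpp, and 1118, 996 and 826 in LE 16 wkpp. LE and HE at 1 wkpp did not overlap with exonic reads, by a narrow margin, but did with whole gene reads. The difference was 0.75 ± 0.26 (exonic, adjusted p = 0.0825) and 0.59 ± 0.25 (whole gene, adjusted p = 0.26). Before calving minus LE 1 wkpp was -0.68 ± 0.33 (exonic, adjusted p = 0.409) and -0.90 ± 0.29 (whole gene, adjusted p = 0.292), whereas before calving minus HE 1 wkpp was 0.06 ± 0.29 (adjusted p = 0.892). SETMAR, KIAA0430 and the growth factor gene FGF10 had the most similar pattern (r = 0.84, 0.80 and 0.80).

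The libraries of a group were put in order by FKBP5 and by other genes, a comparison chosen after the values were seen. Of the 15 pairs of libraries within groups, TSC22D3 gave the same order as FKBP5 in 11, which 15.2% of all genes reached or exceeded, PDK4, a kinase that restrains glucose oxidation, in 13, PER1, a clock gene, in 12 and HIF3A in 12. The median was 9 pairs over the 22 glucocorticoid response genes compared and 7 over all 8020 genes, and 12 or more were reached by 3 of the 22 (13.6%) and by 7.67% of all genes. ESR1 and NR3C2 gave the same order in only 2 and 3 pairs. In LE 1 wkpp the second library, lowest for FKBP5, was also lowest for TSC22D3, for PDK4 (6960 against 20416 and 21819) and for HIF3A (194 against 1706 and 2003). The same library was highest of its group for some markers of other cells, namely CPA3 (999 against 402 and 203), PTPRC (1353 against 636 and 637) and CD68 (1793 against 530 and 310). These were named after their values were seen, and the rest of their lists is not given. Among endothelial markers, this library was lowest for VWF (14474 against 17897 and 16739.5), KDR (2648 against 5114 and 6577), TEK (1581 against 1820 and 1995) and PECAM1 (8851 against 9530 and 9273), but not for CDH5. The part of these markers in this order was not tested.

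Reads outside exons made up very different shares of the reads of each gene. The median over 15 libraries was 4.22% for FKBP4, 49.0% for TSC22D3, 64.4% for NR3C1, 73.2% for FKBP5, 83.0% for HSD11B1, 88.8% for ESR1, 89.0% for PGR and 93.1% for NR3C2. For NR3C2 the share was 90.2% to 91.1% in HE 1 wkpp and 91.1% to 92.9% in HE 16 wkpp, whereas LE 1 wkpp had 92.5% to 94.5% and before calving 93.1% to 96.4%. For FKBP5 it was 73.8% to 78.6% before calving and 60.2% to 73.2% in HE 1 wkpp, and for TSC22D3, in the other direction, 41.2% to 45.4% and 47.7% to 61.5%. Between these groups the libraries failed to overlap in 3 of 8 genes, with the share higher before calving in 2 (NR3C2 and FKBP5) and lower in 1 (TSC22D3), beside 21.4% and 7.38% of 10260 genes. These shares are descriptions, and the share over all genes ranged from 40.2% to 59.4% between libraries.

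**Figure D4:**
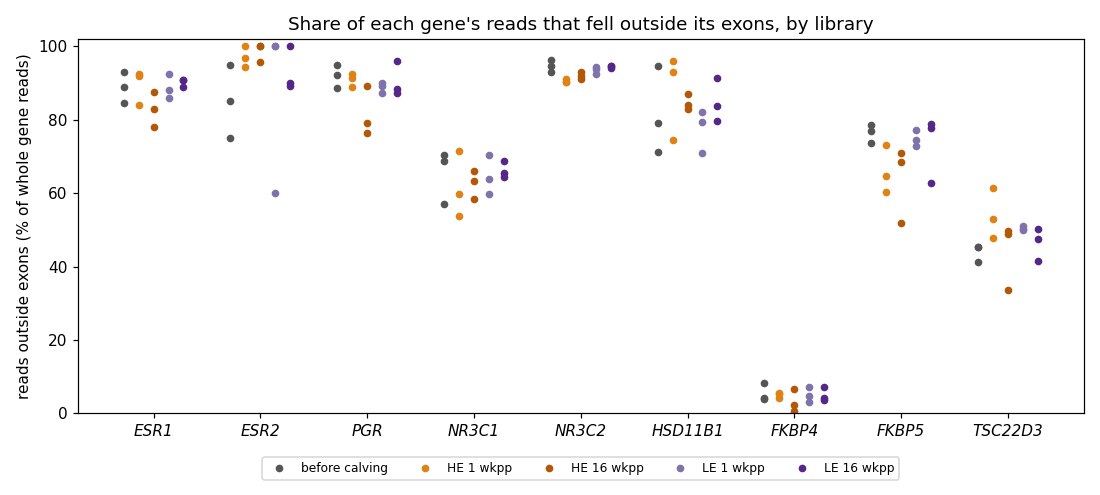
Percent of the whole gene reads of each gene that fell outside its exons, with 1 dot per library, coloured by group. FKBP4 stays below 9% in all libraries and NR3C2 above 90%.

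Of the lists around these genes, the glucocorticoid response was the only one with genes called. Before calving against HE 1 wkpp, 2 of 22 tested were called higher before calving and 1 lower, beside 1.82% of all genes called. CRISPLD2 had exonic counts of 4613, 3425 and 3707 before calving and 1163, 711 and 664 in HE 1 wkpp, a difference of 2.22 ± 0.26 (adjusted p = 0.00041 exonic and 0.00938 whole gene). PIK3R1, the regulatory subunit of phosphoinositide 3-kinase, differed by 1.61 ± 0.27 (adjusted p = 0.00195 and 0.00788). PER1 was lower before calving, with 1238, 1171 and 2083 against 6358, 4673 and 4533, a difference of -1.81 ± 0.26 (adjusted p = 0.000974 and 0.00906). All 3 calls were lost without any 1 library other than the deepest of HE 1 wkpp, with adjusted p up to 0.0703. PER1 and CRISPLD2 were thus called in opposite directions.

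The median log2 difference of that list was -0.45 before calving minus HE 1 wkpp (8 of 22 higher before calving) and -0.72 before calving minus LE 1 wkpp (6 of 22), beside 0.04 and -0.03 over all genes tested. No gene of the list was called in the latter. LE minus HE had list medians of 0.53 at 1 wkpp and 0.47 at 16 wkpp, beside 0.07 and 0.03 over all genes, again with 0 called. No gene was called in any of the 6 comparisons among the receptor chaperones (15 of 15 tested, medians between -0.21 and 0.07), the genes of the oestrogen and progesterone response (8 or 9 of 12 tested), the coregulators (6 of 11), the enzymes of steroid metabolism (9 to 13 of 16) or the related receptors (5 or 6 of 10). The largest of these list medians was 1.04 for steroid metabolism before calving minus HE 1 wkpp, with 8 of 11 genes higher before calving.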

How the data were processed

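The files were 6 tables of the authors, 1 for each comparison, with 13988 entries (13896 genes and 92 spike-in RNAs). Per the labels and the study's methods, stranded total RNA libraries were trimmed with cutadapt 1.3, aligned with TopHat2 to bosTau8, counted with HTSeq on exons and on whole genes, and divided by DESeq2 size factors. The deposited value used here is the authors' mean normalized count over the 6 libraries of a table, printed with up to 15 digits. The authors' fold changes, standard errors, scores and p-values in the same tables were not used.

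Each mean is a sum of whole reads times a fixed step per library. The steps were read from genes with reads in 1 group only, and the whole reads of the 15 libraries were solved from the 6 means of a gene by lattice reduction. Groups follow from the tables a library enters, but libraries could not be matched to sample titles. Size factors recomputed from the recovered reads differed from the deposited ones by at most 0.541%, and the largest relative residual was 6.55e-15. The method was tested on simulated data. Reads were recovered for 13890 genes, and 6 highly expressed genes (COL1A1, COL1A2, COL3A1, EBF1, FBN1 and RN7SL1) were not used. The planned test assumed a count file, and limma was kept as the test on the recovered reads.

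Each comparison was fitted with limma voom (limma 3.58.1, R 4.3.3) on its 6 libraries, with median of ratios scaling, for genes with a mean normalized count of at least 10, and log2 differences are the first minus the second group. The rules for naming genes were all 9 genes, at most 4 called genes per list and comparison, and for likeness the 3 genes of highest Pearson r among those with a mean count of at least 100. The genes and lists were chosen with earlier results of these data known. PDK4 and HIF3A, and the markers set beside the order of FKBP5, were named after their values were seen. Per the study's methods each animal was biopsied at the 3 times and 3 cows of each group were sequenced, so libraries of 1 diet at 1 and 16 wkpp, and some before calving, may share cows. The labels do not link them, the fits treat them as independent, and p-values measure the spread between these libraries. Sample titles also hold a code (m1 or m2) that is constant within each group and not explained, and that cannot be told apart from the group except for before calving against HE 1 wkpp, which share m1. Genes of the lists missing from the tables were not analysed here, and no coordinates are given because the gene table used here is of a later bovine assembly.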

Additional observations from a re-analysis of the deposited data

Results flagged for a closer look

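The synthetic spike-in RNAs, which no comparison used, took 39.8% of the summed mean normalized exonic counts in the authors' table of HE 1 against HE 16 wkpp, compared with 4.96% in the table of before calving against LE 1 wkpp. The other tables had 31.0% (before calving against HE 1 wkpp), 32.2% (LE against HE at 1 wkpp), 18.5% (LE against HE at 16 wkpp) and 3.83% (LE 1 against LE 16 wkpp). Every table with HE libraries was above both tables without them, and the part of this in the differences from HE was not tested. Groups of 3 libraries were not examined for outliers.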

How the results depend on the processing

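No paired analysis was possible because the recovered libraries carry no replicate number or cow. The number of the 9 genes called was 0 in 71 of 76 alternative fits. Before calving against HE 1 wkpp it was 2 with exonic reads alone (ESR1 and NR3C1), 1 with library quality weights and 1 with all 15 libraries in one fit (NR3C1 in both). For LE against HE at 16 wkpp it was 1 (ESR1) with exonic reads alone and 1 with an adjusted p below 0.05 in both analyses. Leaving out 1 library gave 0 to 1 before calving against HE 1 wkpp (1, NR3C1, without the deepest HE 1 wkpp library) and 0 elsewhere. The exonic difference of ESR1 before calving minus HE 1 wkpp ranged from 1.50 to 2.68 over 13 alternatives and passed in 12 of them (not without the deepest library before calving, adjusted p = 0.0106), that of NR3C1 from 1.11 to 1.42 and passed in 11 (not without the deepest or the shallowest library before calving, 0.0134 and 0.0114), and that of ESR1 between diets at 16 wkpp from 1.12 to 1.39 and passed in 5. Whole gene and intronic reads alone passed in none of the 3. The last also missed the threshold with no filter on low counts (0.0102). CRISPLD2, PER1 and PIK3R1 each kept their call in 7 of 13 alternatives and lost it with no filter on low counts (adjusted p of 0.0124, 0.0122 and 0.0101). Over all genes, 190 were called before calving against HE 1 wkpp, 1583 with quality weights, 1081 with all libraries in one fit, and 1 to 227 with a library left out. For LE against HE at 16 wkpp, 371 were called, and 34 to 111 with a library left out. At 1 wkpp the diets gave 0 calls, 801 with quality weights and 448 without the deepest HE library. Total count scaling moved the median of all genes by -0.13 before calving against HE 1 wkpp and by -0.10 before calving against LE 1 wkpp, and the share of calls that were higher in the former from 56.8% to 41.1%. Levels of ESR2 under the floor of 3 reads were not detectable.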
